A study of Mus musculus with 3 samples.

Results

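The nuclear-encoded genes of the respiratory chain were examined in RNA from nuclei of macrophages. Members were all genes with a protein-coding transcript whose symbol begins with Ndufa, Ndufb, Ndufc, Ndufs, Ndufv, Uqcr, Cox4 to Cox8 or Atp5, or is Sdha to Sdhd, leaving out symbols marked as pseudogenes. The rule reads names and no measured value. It found 94 gene identifiers (93 symbols, since Atp5o has 2 identifiers) among 55536 annotated genes, of which 22028 are protein-coding. By textbook role they were 7 core subunits, 29 accessory subunits and 8 assembly factors of complex I, 4 subunits of complex II, 8 of complex III, 12 common subunits of complex IV, 8 complex IV paralogs known mainly from heart, muscle, lung, testis or low-oxygen cells, and 18 identifiers of complex V. Ndufa4, once counted with complex I, was grouped with complex IV.

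The respiratory chain sits in the inner mitochondrial membrane. Complexes I and II pass electrons from NADH and succinate to ubiquinone, complex III passes them on to cytochrome c and complex IV to oxygen, and complex V, the ATP synthase, makes ATP from the proton gradient that this builds. Complexes I, III, IV and V are mosaics of subunits from 2 genomes, the mitochondrial genome and the nucleus, while complex II is made from nuclear genes alone. In macrophages the chain is also known as a source of reactive oxygen species, and activated cells shift between it and glycolysis.

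The libraries were 3 replicates of 1 group: bone marrow-derived macrophages, phagocytes grown from marrow progenitors, of C57BL/6J mice, treated for 15 min with 100 ng/ml Lipid A, the Tlr4-binding part of bacterial lipopolysaccharide. The labels give no genetic change, and list age and sex as not collected. The fraction is called nuclear in one label and nucleoplasmic in another. The libraries came from separate biosamples with 1 donor entry, so the spread between them may be technical. No untreated sample was among those analysed here, so no value below is a response to Lipid A. The smallest p that flipping signs over 3 libraries allows in an exact two-sided permutation test is 0.25, so differences are given with their spread and no test.

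Annotated genes held 18516063, 17345644 and 20947006 expected counts (reads divided among genes by a model) in replicates 1 to 3. Starting RNA was 1 µg for replicates 1 and 3 but 500 ng for replicate 2. All 7 macrophage markers were detected, with a median of 197, 181 and 151 TPM, a relative abundance corrected for transcript length. All T cell, B cell, neutrophil, erythroid and muscle markers stayed below a mean count of 10, while 1 of 3 fibroblast and 2 of 3 endothelial markers passed it at under 1 TPM.

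Promoter sequence was set beside the levels because respiratory chain genes are known to share sites for NRF1, for ETS factors of the GABP type and for YY1. RefSeq windows from 250 bases before to 50 after the start (GRCm38.p6) matched 76 of the 93 symbols, 72 of them outside the restricted complex IV paralogs. The motifs searched, each on either strand, were the NRF1 motif, the ETS motif CCGGAAG, the YY1 motif, CCAAT and the TATA box TATAAA, and none contains another. The stretches below, from 250 to 51 bases before the start and 5′ to 3′ on the gene's strand, show matches in capitals. Cox6a1 and Ndufs5 carry NRF1 matches, Uqcr11 and Atp5e ETS matches, Atp5b, the member with the highest mean TPM, only CCAAT boxes, and Cox7a1 and Cox7b2 stand for the restricted paralogs.
Cox6a1: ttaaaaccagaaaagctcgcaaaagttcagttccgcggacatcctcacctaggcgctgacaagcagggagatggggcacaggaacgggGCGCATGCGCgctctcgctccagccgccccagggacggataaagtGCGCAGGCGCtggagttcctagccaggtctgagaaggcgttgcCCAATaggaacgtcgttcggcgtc
Ndufs5: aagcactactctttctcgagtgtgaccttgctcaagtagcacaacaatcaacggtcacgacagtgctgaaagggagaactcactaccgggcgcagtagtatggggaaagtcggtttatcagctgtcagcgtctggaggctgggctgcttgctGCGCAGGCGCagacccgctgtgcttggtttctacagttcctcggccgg
Uqcr11: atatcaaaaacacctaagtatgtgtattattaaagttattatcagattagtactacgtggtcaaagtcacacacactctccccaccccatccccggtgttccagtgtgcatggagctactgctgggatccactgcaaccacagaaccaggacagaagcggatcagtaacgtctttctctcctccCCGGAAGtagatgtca
Atp5e: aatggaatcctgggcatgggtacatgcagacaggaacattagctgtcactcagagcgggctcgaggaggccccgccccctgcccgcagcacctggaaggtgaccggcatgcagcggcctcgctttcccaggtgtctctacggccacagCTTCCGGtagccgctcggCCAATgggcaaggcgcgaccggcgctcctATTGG
Atp5b: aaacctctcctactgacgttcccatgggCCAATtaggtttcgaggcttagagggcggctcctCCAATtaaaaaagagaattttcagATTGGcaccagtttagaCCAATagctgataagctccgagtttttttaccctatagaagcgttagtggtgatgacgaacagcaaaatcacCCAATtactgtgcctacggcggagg
Cox7a1: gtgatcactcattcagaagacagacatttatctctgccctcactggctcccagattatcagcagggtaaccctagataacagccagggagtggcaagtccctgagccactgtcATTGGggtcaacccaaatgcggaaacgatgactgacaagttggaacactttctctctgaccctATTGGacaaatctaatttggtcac
Cox7b2: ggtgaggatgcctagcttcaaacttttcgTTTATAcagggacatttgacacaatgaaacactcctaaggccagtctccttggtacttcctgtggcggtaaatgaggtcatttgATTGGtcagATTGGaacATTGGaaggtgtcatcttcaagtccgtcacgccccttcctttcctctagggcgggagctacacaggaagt
Cox6a1 (chr5:115349009-115349208, minus strand) holds 2 NRF1 matches and a CCAAT box, and Ndufs5 (chr4:123718237-123718436, minus strand) 1 NRF1 match. Uqcr11 (chr10:80406872-80407071, minus strand) and Atp5e (chr2:174464152-174464351, minus strand) each hold 1 ETS match. The Atp5b stretch (chr10:128083057-128083256, plus strand) holds 5 CCAAT boxes. Those of Cox7a1 (chr7:30183921-30184120, plus strand) and Cox7b2 (chr5:71548256-71548455, minus strand) hold CCAAT boxes on the reverse strand, in Cox7b2 with a TATA box on that strand, and none of the NRF1, ETS or YY1 letters.

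Over the whole windows, 19 of 72 members (26.4%) held an NRF1 match, against 7.17% of 17491 protein-coding genes. An ETS match was in 18 of 72 (25%) against 12.9%, and a YY1 match in 5 of 72 (6.94%) against 1.06%. CCAAT boxes were as frequent in members (43.1%) as in all genes (42.3%), and TATA boxes were in 6.94% against 14.8%. The 4 restricted paralogs with a window held no NRF1, ETS or YY1 match, but 4 windows are too few to compare with these shares. A match is a run of letters and says nothing of binding in these cells.

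**Figure D1:**
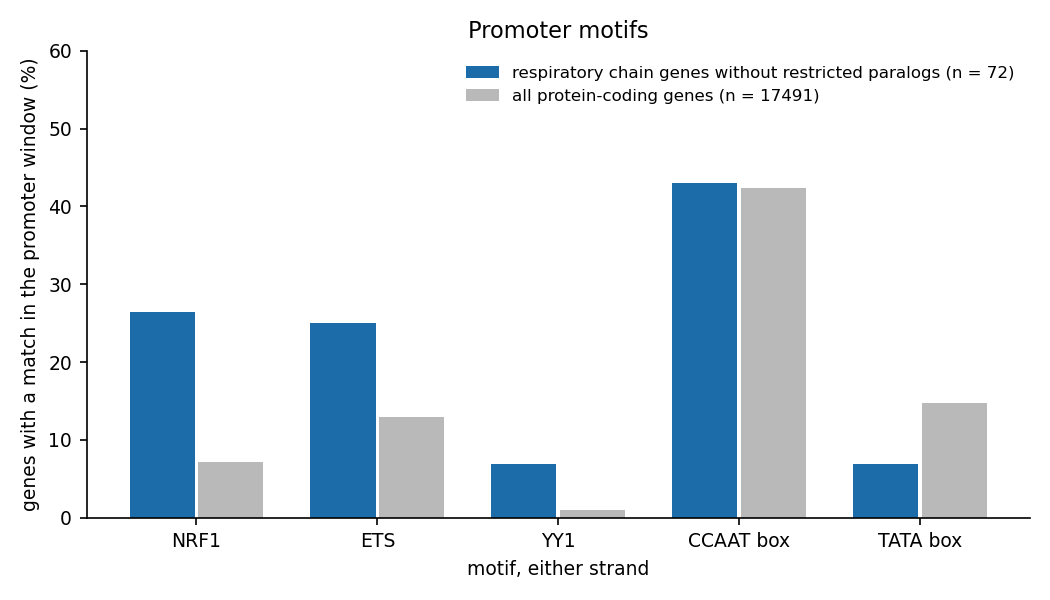
Share of genes with each motif in the RefSeq promoter window (percent, bars from 0), for 72 respiratory chain genes outside the restricted paralogs and for 17491 protein-coding genes. NRF1, ETS and YY1 letters were in 26.4%, 25% and 6.94% of members, and CCAAT boxes in about the same share of both sets.

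The factors known to read such sites were themselves transcribed. Nrf1, the activator of respiratory genes, was at 10.7, 12.0 and 7.22 TPM in replicates 1 to 3. The GABP subunit genes Gabpa and Gabpb1 were at 6.57, 9 and 6.03 and at 8.68, 11.3 and 6.57 TPM, and Yy1 at 9.18, 9.2 and 6.61 TPM. Of the 13 genes listed as biogenesis regulators, 12 had a mean count of at least 10. Ppargc1a, the PGC-1alpha coactivator known from muscle and brown fat, had 2, 0 and 4 counts and was the gene that did not, whereas the related coactivator gene Pprc1 had 1718, 848 and 1036 counts.

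The first question was how abundant the members were in nuclear RNA. A mean count of at least 10 was reached by 85 of the 94 members (90.4%), against 54.3% of protein-coding genes. The 9 below it were the 8 restricted complex IV paralogs and the second Atp5o identifier, which had 0 counts in each library and overlaps the first. In replicates 1 to 3 the median member was at 8.07, 7.32 and 6.67 TPM. The median protein-coding gene with a mean count of at least 10 was at 7.28, 7.34 and 5.46 TPM. The difference of these medians, 0.14 ± 0.14 on the log2(TPM + 0.1) scale (SD, n = 3), did not exceed its spread between libraries. At a mean of 10 TPM or more stood 35 members, against 20.9% of all protein-coding genes, and 8 members were above 20 TPM. The members together took 0.107 ± 0.00733% of counts (SD, n = 3).

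Other gene sets of the organelle give these levels a scale. Mitochondrial ribosomal protein genes had medians of 5.04, 4.46 and 3.59 TPM, below the members in each library. Genes of the TCA cycle and matrix dehydrogenases, which feed NADH to complex I, were at 12.99, 15.1 and 12.5 TPM, and cytosolic ribosomal protein genes at 45.4, 34.1 and 32.0 TPM, above the members in each library. The members' transcripts are short, with a median length of 785 nucleotides against 2471 for protein-coding genes. Without division by length the median member was below the median protein-coding gene, by 1.55 on the log2(CPM + 0.1) scale.

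The levels differed between the complexes. On the log2(TPM + 0.1) scale the group medians ran from complex IV at 3.88 ± 0.22 (SD, n = 3) through complex I core at 3.56 ± 0.06, complex II at 3.56 ± 0.07 and complex V at 3.53 ± 0.04. Complex III followed at 3.05 ± 0.27, complex I accessory subunits at 2.80 ± 0.14, complex I assembly factors at 1.59 ± 0.49 and the restricted complex IV paralogs at -2.36 ± 0.34. Within libraries, complex I core minus complex II was 0.00 ± 0.04 and core minus complex V 0.04 ± 0.03 on this scale, while complex III was above the accessory subunits in each library, by 0.25 ± 0.16. The second transcript table, from another program, turned the top of this order: complex IV minus core was 0.31 ± 0.17 in the first table and -0.38 ± 0.12 in the second. Core was there above complex II by 0.57 ± 0.18 and above complex V by 0.57 ± 0.14 (SD, n = 3). The 78 structural identifiers outside the restricted paralogs had medians of 9.38, 9.14 and 8.29 TPM. Complex V took 28.9 ± 1.51% of the members' summed TPM, complex I accessory subunits 22.75 ± 0.660% and complex IV 20.7 ± 0.731%.

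**Figure D2:**
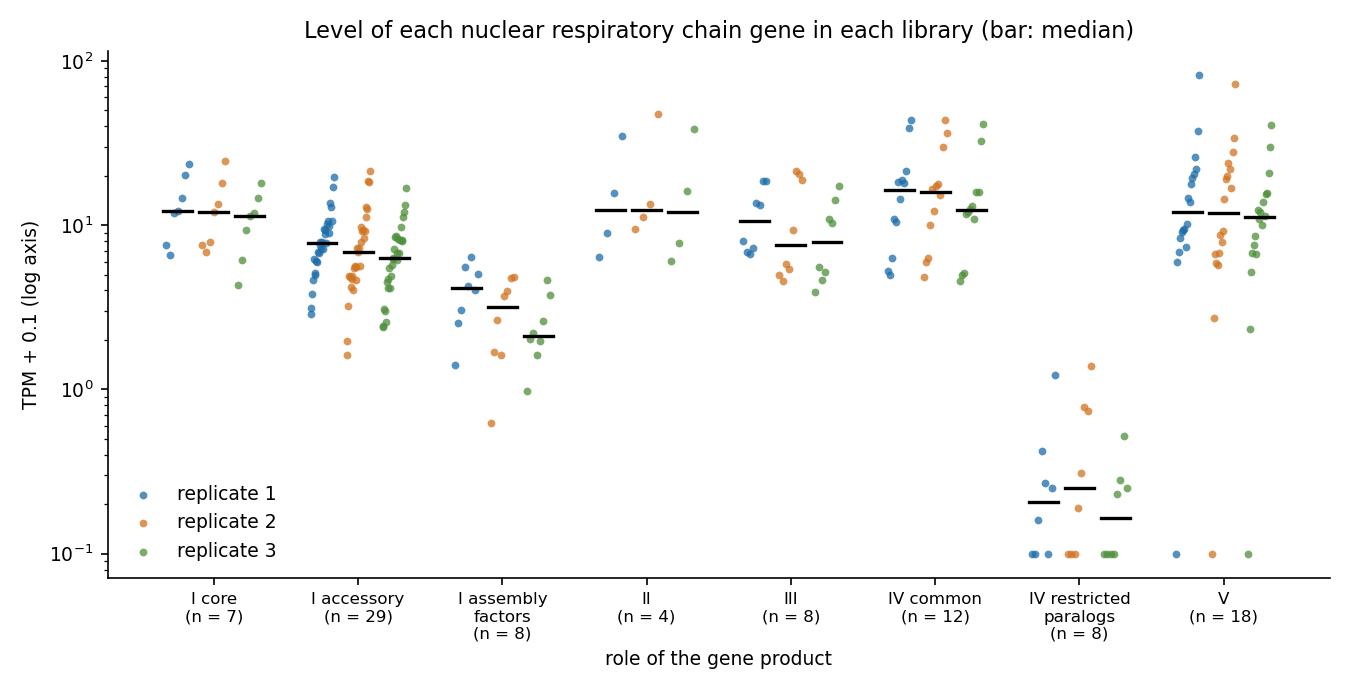
TPM plus 0.1 of each of the 94 gene identifiers (log axis) by role of the product, with 1 point per gene and library and a bar at the median of each library. The median of the restricted complex IV paralogs lies below that of all other groups in each library, although single points overlap with the assembly factors. Atp5b is the highest point in replicates 1 and 2 and Cox4i1 in replicate 3.

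Complex I takes electrons from NADH through core subunits, 7 of them nuclear, among which are the carriers of its flavin and iron-sulfur clusters. Ndufs1 (chromosome 1, 63143596 to 63176833, GRCm38), which binds several of these clusters, was the highest at 23.4, 24.5 and 17.98 TPM. Ndufs3 was at 14.5, 13.3 and 11.8 TPM. The lowest were Ndufs8, a carrier of 2 clusters, at 6.52, 6.76 and 6.06 TPM and Ndufv2 at 7.47, 7.52 and 4.24 TPM. Highest and lowest core subunits differed 3.42-fold in mean TPM, and their values did not overlap.

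Accessory subunits surround the core and are needed for its assembly and stability. Ndufab1, the mitochondrial acyl carrier protein, led them at 19.5, 21.2 and 16.8 TPM, followed by Ndufb8 at 16.9, 18.2 and 13.2 and Ndufa3 at 10.5, 18.5 and 11.9 TPM. Ndufc1 was at 3.01, 1.87 and 2.31 TPM and Ndufb6 at 2.77, 1.53 and 2.34 TPM, the lowest of the group. The range over accessory subunits, 8.67-fold in mean TPM, was wider than over core subunits. A range tends to widen with the number of genes, here 29 against 7. All 29 passed a mean count of 10, but only 6 reached a mean of 10 TPM.

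The assembly factors, which build complex I and leave it, were lower than the structural subunits in each library. Ndufaf7, a methyltransferase, was at 4.96, 4.71 and 3.65 TPM, Ndufaf3 at 3.9, 4.68 and 4.52 and Ndufaf6 at 6.3, 3.85 and 2.5 TPM. Ndufaf5 was at 2.43, 1.58 and 1.92 TPM. Ndufaf2, a late-acting factor, was the lowest at 1.31, 0.52 and 0.88 TPM, from 15, 5 and 14 counts. Their median was below that of all structural subunits by 1.58 ± 0.40 on the log2(TPM + 0.1) scale (SD, n = 3). A list of 9 complex I assembly genes with other names, such as Acad9, Ecsit and Foxred1, was fully detected at medians of 6.67, 7.26 and 4.46 TPM.

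Complex II, succinate dehydrogenase, joins the TCA cycle to the chain. Sdha (chromosome 13, 74322254 to 74350280), its flavoprotein, was at 34.8, 47.2 and 38.2 TPM and Sdhb, the iron-sulfur subunit, at 15.6, 13.4 and 16.0 TPM. The membrane anchors Sdhd and Sdhc were lower, at 8.84, 11.1 and 7.7 and at 6.34, 9.32 and 5.97 TPM. The proteins are present in equal number in the complex, whereas the RNAs of Sdha and Sdhc differed 5.56-fold in mean TPM, with no overlap between libraries.

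Complex III, the cytochrome bc1 complex, was led by Uqcrh (chromosome 4, 116066965 to 116075071), the hinge protein, at 18.6, 18.7 and 17.2 TPM. The core protein gene Uqcrc1 was at 18.5, 20.3 and 14.1 TPM and Uqcrb at 13.2, 21.1 and 10.2 TPM. Uqcrq at 6.8, 4.48 and 5.43 TPM and Uqcr10 at 7.87, 4.89 and 3.82 TPM were the lowest, and overlapped with the Rieske iron-sulfur protein gene Uqcrfs1 at 6.6, 5.67 and 4.56 TPM. Cytochrome c1, Cyc1, is a subunit that the naming rule leaves out and was at 12.4, 7.42 and 8.63 TPM.

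Complex IV, cytochrome c oxidase, was led by Cox4i1 (chromosome 8, 120668222 to 120674207), a regulatory subunit, at 43.7, 36.2 and 41.0 TPM. Cox7c was at 38.8, 43.6 and 32.3 TPM and Cox6c at 21.2, 29.99 and 15.8 TPM. Ndufa4 at 5.15, 4.73 and 4.44 and Cox7b at 4.88, 5.9 and 4.86 TPM were the lowest common subunits. Cox7a2l was at 10.3, 16.6 and 11.9 TPM, above the subunit gene Cox7a2 at 6.19, 6.24 and 4.99 TPM in each library.

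Complex V held the member with the highest mean TPM. Atp5b (chromosome 10, 128083273 to 128090391), the catalytic beta subunit, was at 82.3, 72.7 and 40.4 TPM, from 2024, 1385 and 1706 counts. Its partner Atp5a1, the alpha subunit, was at 37.4, 33.6 and 29.9 TPM and the stalk subunit Atp5h at 21.95, 27.8 and 20.7 TPM. In replicate 3 Cox4i1 was above Atp5b, and in the second table Sdha and Cox4i1 were above it in replicates 2 and 3. Atp5b was above Atp5a1 in each library, although its 2049, 1497 and 2122 counts put Atp5a1, the longer transcript, first before division by length. The lowest single gene with counts was Atp5g1 at 5.86, 2.62 and 2.23 TPM. The next lowest, Atp5s, was at 6.72, 6.58 and 5.12 TPM.

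The c subunit, which forms the rotating ring of the synthase, is encoded by 3 genes whose mature proteins are the same. Atp5g3 gave 62.2 ± 2.16% of their summed TPM (SD, n = 3), Atp5g2 26.9 ± 4.01% and Atp5g1 10.9 ± 2.91%. This order by TPM, Atp5g3 above Atp5g2 above Atp5g1, was the same in the 3 libraries. Before division by length, Atp5g1 was slightly above Atp5g2 in replicate 1. Most counts of Atp5g1, 67.5, 55.1 and 36.9 in replicates 1 to 3, were assigned to Atp5g1-201, a transcript of 4715 nucleotides. Counts of Atp5g1 and Atp5g2 were not whole, so part of their reads was shared with other genes and their shares are uncertain.

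The paralog families of complex IV separated most clearly. Cox4i1 had 530, 384 and 681 counts and its paralog Cox4i2, known from lung and low oxygen, 4, 1 and 0. Cox6a1 had 158, 110 and 198 counts against 2 in each library for the heart and muscle form Cox6a2. Cox6b1 had 149, 112 and 133 counts against 1, 4 and 4 for the testis form Cox6b2. In each of these families every library of the common copy was far above every library of the restricted one.

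Cox7a2 had 65, 50 and 71 counts and Cox7a1, the heart and muscle form, 6, 5 and 1, the highest restricted share of a family at 6.06% (exact 95% interval 3.17% to 10.3%). In the second table Cox7a1 had 53, 47 and 18 counts and its share was 22.8%, again the highest of the 7 families. Cox8a had 88, 68 and 136 counts, Cox8b 0, 2 and 1 and Cox8c 0 in each library. Ndufa4 had 54, 45 and 60 counts and the hypoxia-responsive Ndufa4l2 1, 0 and 0. Cox7b had 67, 70 and 72 counts and the testis form Cox7b2 0 in each library, which allows up to 3 counts in each. Over the 7 families, restricted copies took 36 of 3337 counts, or 1.08% (exact 95% interval 0.757% to 1.49%), and 4.38% in the second table, where Cox7a1 and Cox4i2 passed a mean count of 10. These intervals cover counting error only. The gap between structural subunits and restricted paralogs was 5.54 ± 0.27 in medians of log2(TPM + 0.1) (SD, n = 3), 3.89 ± 0.55 in the second transcript table and 3.17 with a pseudocount of 1. Muscle and heart markers such as Myh7, Acta1 and Ckm had at most 4 counts in a library.

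**Figure D3:**
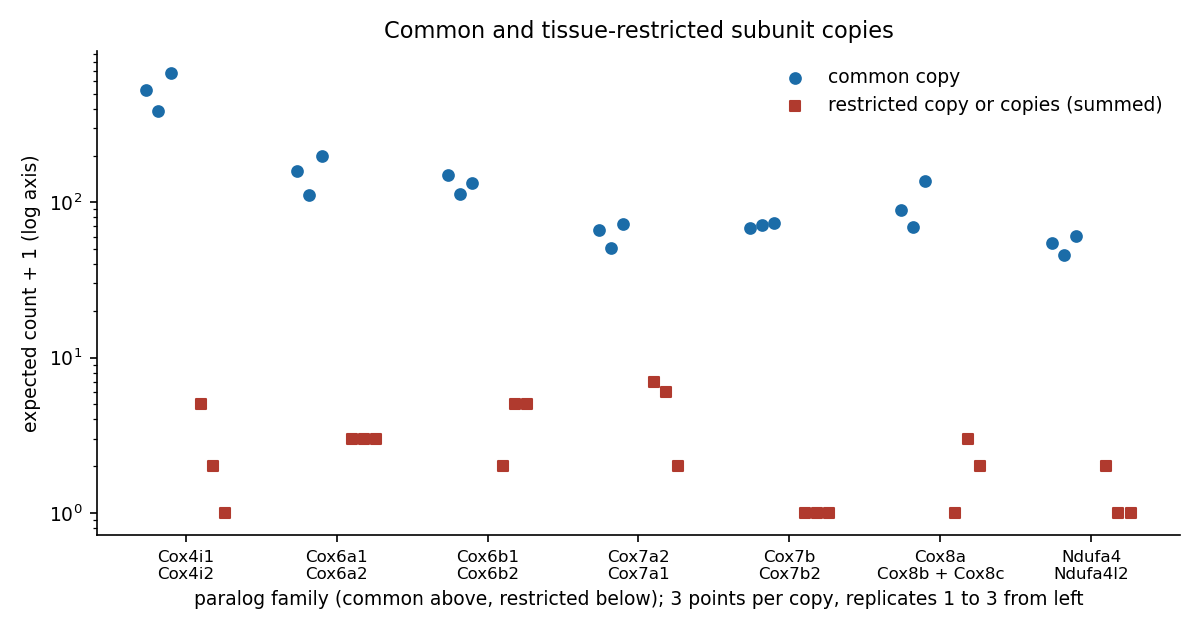
Expected counts plus 1 (log axis) of the common copy and the restricted copies of 7 subunit families, with 3 points per copy for replicates 1 to 3. Common copies lie between 45 and 681 counts and restricted copies between 0 and 6, with no overlap in any family.

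The replicates were next compared with each other on log2 CPM scaled by TMM, since they differ in starting RNA. Replicate 2 was the lowest library for 56 of the 85 members detected, against 35.2% of 11963 protein-coding genes, and replicate 3 the highest for 50, against 34.6%. Replicate 1 was highest for 25 (37% of protein-coding genes) and lowest for 16 (36.4%), replicate 2 was highest for 10 (28.3%), and replicate 3 was lowest for 13 (28.4%). Against the mean of its values elsewhere, the median member stood at 0.837 in replicate 2, 1.13 in replicate 3 and 1.05 in replicate 1. Relative to the median protein-coding gene these values were 0.857, 1.10 and 1.05. With library totals in place of TMM the median protein-coding gene of replicate 3 shifted to -0.14 on the log2 scale and 25 members were highest there, against 20.6% of protein-coding genes. The members stood 1.10-fold above that median under both scalings. This had to be so, because scaling shifts all genes of a library nearly alike, so it is no check.

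Few members moved far. In replicate 2, 8 members were lower than in both other libraries by 1.5-fold or more, against 5.77% of protein-coding genes: Ndufa1, Ndufa2, Ndufb6, Ndufaf2, Ndufaf5, Uqcr11, Atp5d and Atp5o. At least 1.5-fold above both in replicate 3 were 4, against 3.93%: Ndufb11, Cox5b, Cox8a and Atp5k. In replicate 1 only Ndufaf8, 1 of 85, was that far above, against 10.3%. No member was that far below in replicate 1 (8.23% of protein-coding genes), above in replicate 2 (2.11%) or below in replicate 3 (3.03%). At this count threshold, the share of members past this fold was above the background downward in replicate 2. It was near the background upward in replicate 3 and below it in replicate 1. The count of 8 in replicate 2 depended on the setting. It was 7 with DESeq2 size factors and 9 with library totals. Raising the threshold to 50 counts on average left 4 of 72 members that far below both others there, and the second table gave 3 of 87. Ndufa1, Ndufb6, Ndufaf2 and Ndufaf5 averaged fewer than 50 counts. The background at this fold was not computed for these settings, so whether the excess held in them was not tested.

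Groups shared the order in part. In replicate 2 the lowest values were those of 7 of 8 complex III genes, 9 of 12 common complex IV genes, 6 of 8 assembly factors and 8 of 17 complex V genes. All 4 complex II genes were highest in replicate 3, 1.23-fold above the others at the median. Assembly factors had the widest median deviations, 1.40-fold above the others in replicate 1 and 0.716 of them in replicate 2.

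The subunits encoded by mitochondrial DNA went another way. Their median was 1.81-fold above the other libraries in replicate 2, where 11 of 13 were highest, and at 0.539 of them in replicate 3, where 10 of 13 were lowest. Cytosolic ribosomal protein genes, by contrast, were lowest in replicate 2 for 68 of 82 genes, at 0.748 of the others at the median, and macrophage markers stood at 1.40-fold the others in replicate 3. The part of these shifts, and of the starting RNA, in the members' values was not tested. In bulk RNA, fewer cells of a type and less RNA per cell cannot be told apart.

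By TPM the order of the libraries was different. Replicate 3 was the lowest library for 55 of the 85 members by TPM, against 66.4% of protein-coding genes. Protein-coding genes summed to 275472, 355517 and 213358 TPM in replicates 1 to 3, so a given share of counts was worth less TPM in replicate 3. Comparisons between libraries therefore rest on the scaled counts here, and comparisons between genes on TPM, except where counts are named.

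**Figure D4:**
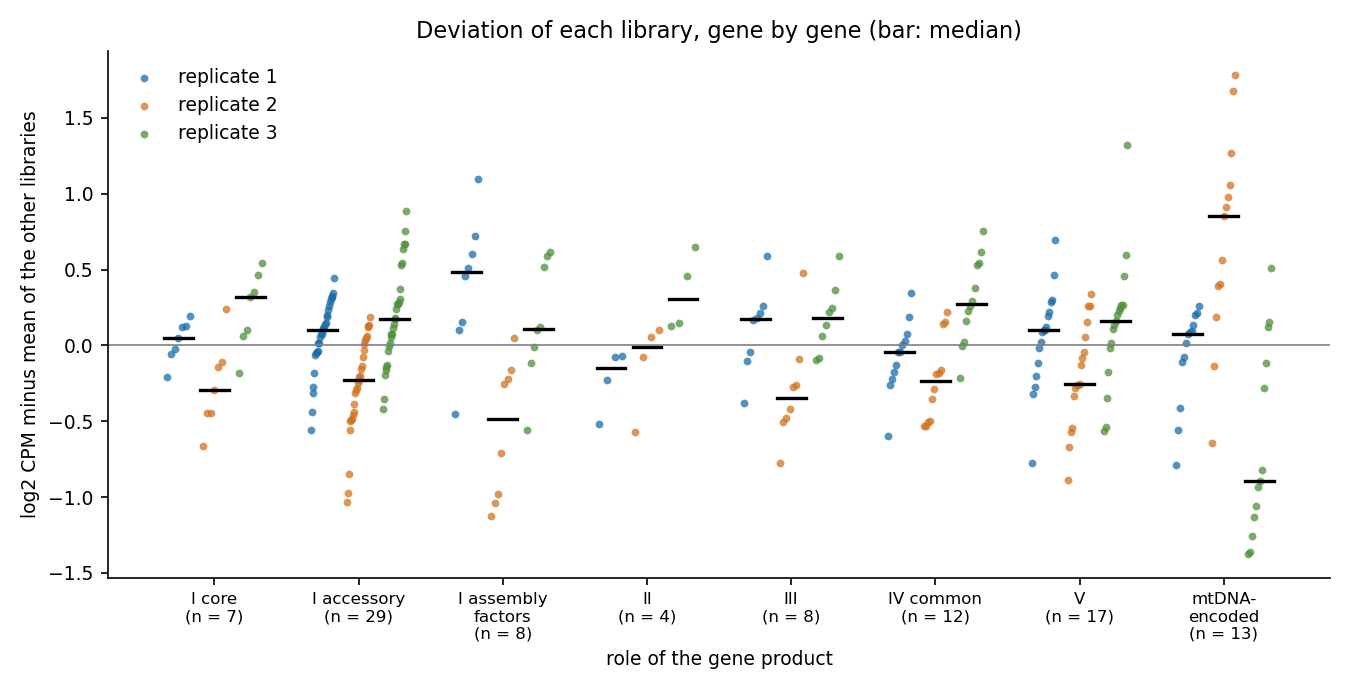
Difference of each gene's log2 CPM from the mean of the other libraries, by role, with 1 point per gene and library and a bar at the median. Nuclear-encoded groups lie at or below 0 in replicate 2 and above 0 in replicate 3, and the 13 subunits of mitochondrial DNA lie the other way round.

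Single members showed how uneven the libraries could be. Atp5k, subunit e of the synthase, had 31, 31 and 83 counts and was 2.50-fold above the others in replicate 3, the largest deviation of a member. Ndufaf8 had 50, 16 and 27 counts and was 2.14-fold above in replicate 1. Ndufa1, an X-linked accessory subunit, had 46, 23 and 64 counts, at 0.488 of the others in replicate 2 and 1.85-fold above them in replicate 3. Ndufaf2 and Ndufaf5 were at 0.459 and 0.486 of the others in replicate 2. These 5 genes had the largest SD of log2 CPM, from 0.60 to 0.77, and all had mean counts under 50.

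Further members stood out in a library without reaching such folds. In replicate 1, Ndufaf6, Atp5g1 and Ndufaf2 were 1.65-, 1.62- and 1.52-fold above the others, with Uqcr10 next, and Atp5k, Cox7a2l, Ndufa3, Sdha and Ndufaf3 stood at 0.585, 0.661, 0.680, 0.700 and 0.730 of them. In replicate 2, Uqcrb, Atp5l, Atp5f1, Atp5s and Ndufv2 were the highest members, from 1.39- to 1.18-fold above the others, while Ndufaf8 and Ndufb6 stood at 0.508 and 0.509 of them. In replicate 3, Ndufb11, Cox8a and Ndufc2 exceeded the others 1.69-, 1.68- and 1.59-fold, and Atp5g1, Ndufaf4, Atp5l, Ndufa11 and Ndufb5 stood at 0.676 to 0.781 of them. The most even member was Ndufb8, with 218, 203 and 220 counts and an SD of 0.03, followed by Ndufs1 with 1106, 917 and 1087 counts and an SD of 0.07.

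The spread of the members was below that of protein-coding genes by SD and slightly above it by a fitted coefficient. The median SD of log2 CPM was 0.21 for the 85 members and 0.29 for protein-coding genes. The biological coefficient of variation, the replicate spread beyond counting noise as estimated in an edgeR fit across all genes, had a median of 0.290 for members and 0.270 for protein-coding genes. The fit pulls each gene's value towards the trend over all genes, so it is not the gene's own spread alone. Ndufb8, with an SD of 0.03, was given 0.252. Ranks were kept between libraries, with Spearman's rho of TPM across the 85 members between 0.925 and 0.940, a description across genes that share each library.

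The mitochondrial genome supplies 13 subunits of the same complexes. Their median was at 4385, 6567 and 2061 TPM, against 9.38, 9.14 and 8.29 TPM for the nuclear structural subunits. The log2 difference was 8.85, 9.47 and 7.94 in replicates 1 to 3, or 8.76 ± 0.77 (SD, n = 3), a 432-fold gap. By complex it was 9.06 ± 0.77 for complex I, 9.00 ± 0.99 for complex III, where mt-Cytb is the sole mitochondrial gene, 6.31 ± 0.02 for complex IV and 8.21 ± 1.47 for complex V. The complex IV gap was the smallest in each library. Its median gene was mt-Co3 at 1278, 1282 and 962 TPM, between mt-Co1 at 16592, 20636 and 7501 and mt-Co2 at 203, 275 and 132 TPM. Several mitochondrial mRNAs have nuclear pseudogene copies that can take their reads, so these single values are uncertain. Since mitochondria transcribe their own DNA, the fraction held RNA from beyond the nucleus, and where in the cell the members' RNA lay was not measured.

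**Figure D5:**
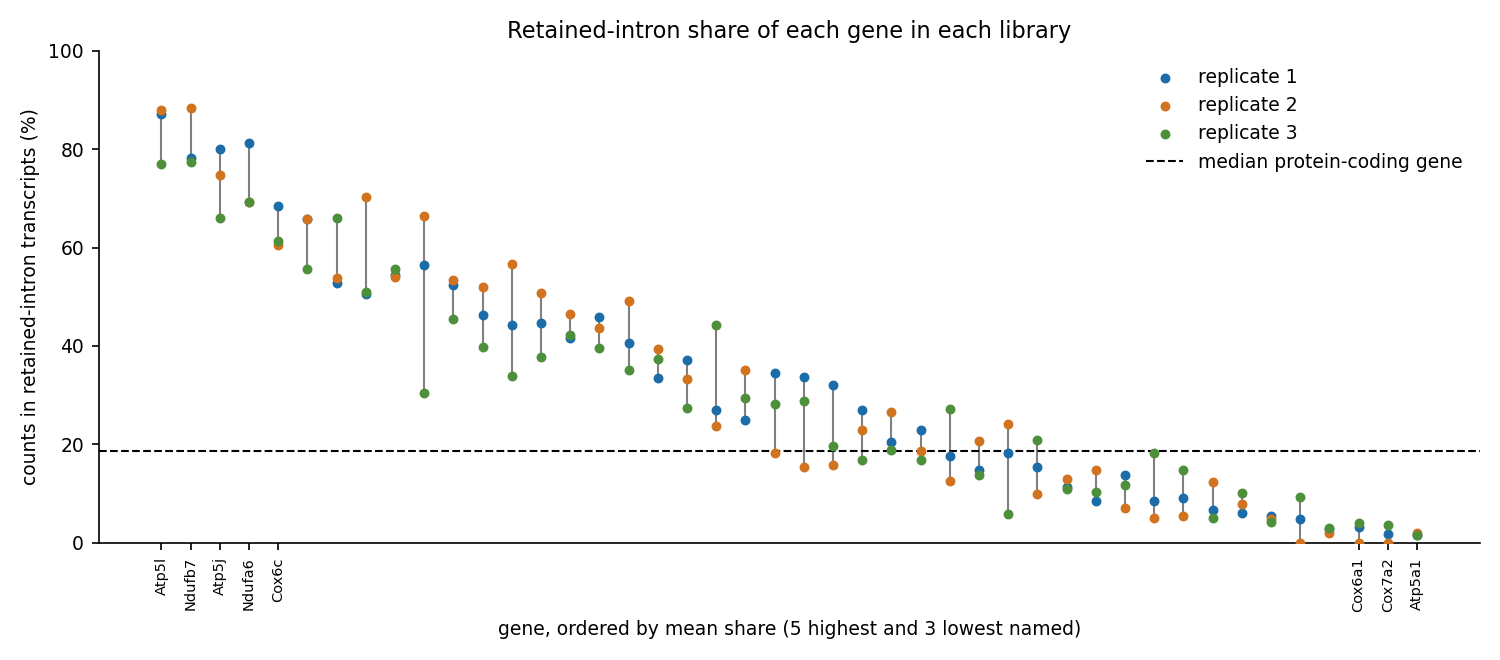
Percent of a gene's expected counts in retained-intron transcripts, for the 44 members with such a transcript and a mean count of at least 50, with 1 point per library and a grey line over their range, and the 5 highest and 3 lowest genes named. Shares run from 84.1% in Atp5l to 1.70% in Atp5a1, and the dashed line marks the median protein-coding gene at 18.7%.

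RNA of nuclei can hold transcripts that are not fully spliced, and the annotation types some as retaining an intron. Of the 94 members, 51 have such a transcript and 44 of these had a mean count of at least 50. Retained-intron transcripts took 30.1%, 31.8% and 25.5% of their counts in replicates 1 to 3, or 29.1 ± 3.26% (SD, n = 3), against 22.6 ± 1.38% over 6383 protein-coding genes. In TPM the members' share was 30.01 ± 1.09% and that of protein-coding genes at 34.1 ± 1.18%, so the direction of this difference depends on the unit. The median member was at 27.1 ± 2.87% of counts and the median protein-coding gene at 18.7 ± 1.04%. More than 50% of counts were in such transcripts in 11 of 44 members, against 15.9% of protein-coding genes. The raised share of counts was not particular to the members. Summed shares were higher in each library for mitochondrial ribosomal protein genes, at 40.7 ± 2.52%, and cytosolic ones, at 34.9 ± 6.16% (SD, n = 3). Their median genes were at 33.6 ± 0.858%, above the median member, and at 24.5 ± 4.85%, below it.

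The members differed widely in this share. Atp5l, subunit g of the synthase, was at 87.2%, 88.0% and 77.1% in replicates 1 to 3, and 641, 618 and 394 of its counts were assigned to the retained-intron transcript Atp5l-204. Ndufb7 was at 78.3%, 88.4% and 77.4%, Atp5j, coupling factor 6, at 80.1%, 74.7% and 66.0%, Ndufa6 at 81.3%, 69.3% and 69.2%, and Cox6c at 68.4%, 60.5% and 61.4%. At the other end, Atp5a1 was at 1.53%, 1.93% and 1.63%, Cox7a2 at 1.76 ± 1.79% and Cox6a1 at 2.42 ± 2.12% (SD, n = 3). Thus the alpha subunit of the synthase and its subunit g, parts of the same enzyme, stood at opposite ends with no overlap. Accessory subunits of complex I had a summed share of 41.7 ± 0.630% and complex III genes 24.0 ± 2.29%. A model divides reads that fit several transcripts, so these shares are estimates.

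Many members lie close to another gene. A protein-coding gene on the opposite strand started within 1000 bases upstream to 200 bases inside the start of 28 of the 85 detected members (32.9%), against 12.6% of detected protein-coding genes. Sdha and Ccdc127 start 29 bases apart, Ndufa7 and the ribosomal protein gene Rps28 10, and Ndufb9 and Tatdn1 18. Ndufs6 and the mitochondrial ribosomal protein gene Mrpl36 have starts that overlap by 29 bases. Mean counts of the 28 pairs were within 2-fold in 8, such as Atp5h at 247 and Kctd2 at 223. The partner was further above in 11, such as Ik at 1634 beside Ndufa2 at 56, and further below in 9, such as Morn5 at 0.333 beside Ndufa8 at 66.7. Counts are not divided by transcript length, so these classes give no order of abundance within a pair. The shares were not computed for pairs of other protein-coding genes, so they describe the members' pairs only.

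Exons of 33 members overlap another gene, of 29 on the opposite strand. Atp5j overlaps Gabpa, the gene of the ETS factor named above, and Cox6c overlaps Vps13b, which had a mean count of 6898 against 364. Strand use in counting is not given in the sources used here, so reads of such partners cannot be told apart. Counts of 21 members were not whole, which marks reads shared with other genes. Of 9 genes named as pseudogenes of the family, Ndufb1-ps had 74, 38 and 87.7 counts and the others at most 7 in a library. The annotation types Ndufb1-ps as a non-coding RNA at a bidirectional promoter.

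The other transcript table, from a different program, gave a check on the members. Across the 85 members its TPM ranked like that of the gene table, with Spearman's rho of 0.851, 0.875 and 0.898 in replicates 1 to 3. Its values were lower, by a median of 0.97, 0.11 and 2.42 on the log2 scale, and protein-coding genes in general were lower by 0.83, 0.20 and 2.23. Its counts were higher for members by 0.55, 1.07 and 0.48 on the log2 scale, and for protein-coding genes in general by 0.45, 0.82 and 0.42. The members furthest below their gene-table TPM were Atp5g2, Atp5e, Ndufb11, Atp5b and Ndufa1, and only Ndufaf2 and Ndufs8 were above it on average. Atp5b, at 82.3, 72.7 and 40.4 TPM in the gene table, was at 29.0, 42.3 and 6.11 TPM in the second, and Atp5g2 was at 2.47, 4.08 and 0.601 against 9.37, 8.62 and 6.61 TPM.

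Partners of the chain outside the naming rule showed levels in the same range. Cycs, the mobile carrier cytochrome c, was at 8.1, 3.44 and 2.49 TPM from 318, 169 and 128 counts, while the testis form Cyct had 0 counts in each library. Atpif1, the inhibitor of the synthase, was at 34.7, 48.4 and 25.1 TPM. Of 22 complex IV assembly genes 21 were detected, at medians of 4.24, 4.16 and 2.68 TPM, and Cox20 among them had 20.8, 117 and 29.6 counts, 4.83-fold above the mean of the others in replicate 2. Ubiquinone synthesis and cytochrome c genes were detected in 10 of 11 cases. All 4 complex II, 6 complex III and 3 complex V assembly genes were detected, with median TPM of at most 6.62 in any library.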

How the data were processed

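Total RNA of nuclei was sequenced after rRNA removal in 3 libraries, and the authors deposited 3 tables for each. Per the file headers, the gene and first transcript tables hold expected counts and TPM, with the column names of RSEM, and the second transcript table holds estimated counts and TPM, with those of kallisto. The build was mm10 and the annotation GENCODE M21, per the notes deposited with each library. No source used here gives program versions. Rows that name no annotated gene, which held 1.24%, 0.372% and 0.0641% of expected counts, were left out.

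Expected counts were rounded, genes whose counts averaged 10 or more were kept, and log2 CPM (prior count 2) came from edgeR 4.0.16 with TMM factors of 1.067, 1.018 and 0.9211. Normalization was tested on simulated data. DESeq2 1.42.0 size factors were an alternative. A count of 0 allows up to 3 counts, or 0.162, 0.173 and 0.143 CPM, for counting error only. Mean log2 TPM used a pseudocount of 0.1. Counts within 0.005 of a whole number were taken as whole. The members and lists were chosen with earlier results of these data known. Named genes were the 3 highest and 2 lowest of each role group by mean TPM, all paralog families, the 5 largest deviations each way per library, the 5 largest SDs, retained-intron shares and ratios between tables; further names were chosen after their values were seen. Values of 1 member that this rule names are not reported here.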

Additional observations from a re-analysis of the deposited data

How the results depend on the processing

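No paired analysis was possible because there is 1 group and the replicate numbers match no other sample. The excess of members over detected protein-coding genes in median log2(TPM + 0.1), 0.14, was 3.58 when protein-coding genes at any count were the comparison, 0.31 without Ndufaf assembly factors, and turned to -1.55 in CPM, which is not divided by length. The gap between structural subunits and restricted paralogs, 5.54, was 3.89 in the second table and 3.17 with a pseudocount of 1, which compresses values near 0. The restricted paralog share of 1.08% was 4.38% in the second table, and the order of complex IV and complex I core turned there. The count of 8 members lower by 1.5-fold or more in replicate 2 was 4 with a mean count of at least 50, 3 with the second table, 1 at 2-fold and 28 at 1.2-fold. The count of 4 above both in replicate 3 was 2 with a mean count of at least 50, 1 with library totals, 1 at 2-fold and 19 at 1.2-fold. For these counts in replicates 2 and 3, the share of protein-coding genes was not computed at the changed settings. They therefore describe the members only. The 50 members highest in replicate 3 were 25 with library totals. The retained-intron share of 29.1% was 36.5% in the second table, where protein-coding genes were at 25.4%. The mean ratio of tables, -1.16 in log2 TPM, was 0.70 in log2 counts. Elsewhere the cause of a difference was not tested.

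Leaving out 1 replicate at a time gave 0.07 to 0.21 for the members' excess, 84 to 85 members detected, 5.41 to 5.68 for the paralog gap, 0.886% to 1.42% for the restricted share, 0.253 to 0.326 for the coefficient of variation, 27.8% to 31.0% for retained introns, 8.40 to 9.16 for the gap between genomes and -1.69 to -0.54 for the ratio of tables. The median deviation was -0.13 to 0.21 in replicate 1, where it turned negative without replicate 2, -0.28 to -0.21 in replicate 2 and 0.13 to 0.28 in replicate 3; these, the restricted share and the ratio of tables by replicate were added after seeing the data.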
